A study of Solanum tuberosum with 9 samples.

Results

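Stolons of the potato variety Kexin 13 grown under nitrogen deficiency (AN0) were set against stolons of the same variety under conventional nitrogen supply (AN1), with 3 RNA libraries a treatment. The 6 libraries are all those the labels give to these treatments, out of 9 in the series, and 21223 of the 25702 genes in the count table had enough reads to be tested. The other 3 libraries came from stolons under excess nitrogen (AN2) and served here to estimate the spread in the same model. The labels were the source for the groups, and the amounts of nitrogen, the growth stage, the age of the plants and the time of sampling are not given in them. Whether the libraries are from different plants, pots or plots is not stated either, so p-values cover the spread among these libraries alone, and part of that spread may be technical.

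Stolons are underground shoots that grow sideways from the base of the plant, and their tips swell into tubers filled with starch and storage proteins. Nitrogen supply is known to influence when and how well potato tubers form. Plants take nitrogen up from soil mostly as nitrate, which nitrate reductase and then nitrite reductase turn into ammonium, and glutamine synthetase fixes the ammonium into an amino acid.

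Levels are given in CPM, the reads of a gene scaled to a fixed library total, after TMM scaling, a correction for differences in library composition. Total counts ran from 32136111 to 38235348 over the 6 libraries. On the log2 CPM scale the AN1 libraries correlated with each other across genes at r between 0.960 and 0.974, the AN0 libraries at r between 0.894 and 0.939, and libraries of different treatments at r between 0.887 and 0.956 (genes are not independent replicates). The AN0 libraries did not group together. AN0-3 correlated with AN1-1 at 0.952, with AN1-3 at 0.956 and with AN1-2 at 0.926, against 0.939 with AN0-2 and 0.894 with AN0-1. AN0-2 was closest to AN1-3, at 0.947. AN0-1 stood apart from the rest. On the first principal component of the 6 libraries, which held 43.4% of the variance, it lay at -120.6, AN0-2 at -36.4, AN0-3 at 42.9, and the AN1 libraries between 16.9 and 64.4. AN0-1 was also high in transcripts of photosynthesis and low in transcripts of tuber storage proteins. The 5 tested photosynthesis genes, as markers of green tissue, summed to 751 CPM in AN0-1, 96.5 CPM in AN0-2 and 23.7 CPM in AN0-3, against 10.99, 11.05 and 64.4 CPM in the AN1 libraries. The 6 storage and protease inhibitor genes summed to 8489 CPM in AN0-1, 37517 CPM in AN0-2 and 46527 CPM in AN0-3, against 32302 to 41784 CPM in AN1. Fewer cells of a type and less RNA per cell cannot be told apart in such bulk samples. The part of this library in the results was not tested, and for the counts and lists that it moves most the values without it are given.

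Under nitrogen deficiency 8 genes rose and 2 fell. Of all genes tested these are 0.0377% and 0.00942%, and 0.0471% together, at an edgeR quasi-likelihood adjusted p (Benjamini-Hochberg over all 21223 genes) under 0.05. The smallest adjusted p was 0.0307. Many more genes differed by less stringent measures. At an unadjusted p under 0.05 edgeR gave 2301 genes (10.8%), of which 1416 were higher (6.67%) and 885 lower (4.17%) in AN0. DESeq2, another count model, called 679 of the 21091 genes it gave an adjusted p (3.22%), 467 higher (2.21%) and 212 lower (1.01%), and these include all 10 genes that edgeR called. All values of single genes below come from the edgeR fit unless DESeq2 is named.

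Most genes differed little between the treatments. The median log2 fold change was 0.02 and the median absolute one 0.30. Of the genes tested 11103 (52.3%) had a positive fold change, and the middle of the distribution, from the 25th to the 75th percentile, ran from -0.27 to 0.34. The tails were uneven, with the 5th percentile at -1.0003 and the 95th at 1.33. A log2 fold change of at least 1 was found for 1614 genes and one of at most -1 for 1063. At 2 and -2 the numbers were 517 and 207, and at 3 and -3 they were 231 and 61. The larger the difference in group means, the greater was the share of genes higher in AN0. Not all of these genes had every AN0 library outside the AN1 range. That held for 247 and 133 genes at 2 and -2, and for 105 and 39 at 3 and -3. These tails were not counted without AN0-1.

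**Figure D1:**
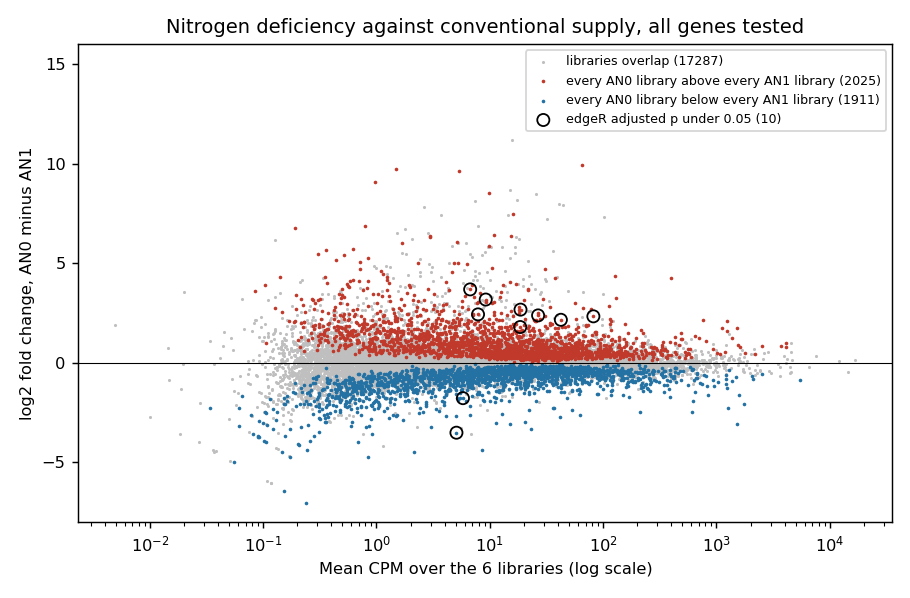
Log2 fold change (AN0 minus AN1, edgeR) of each of the 21223 genes tested against its mean CPM over the 6 libraries (log axis). Red and blue points are the 2025 and 1911 genes whose AN0 libraries all lay above or all below the AN1 libraries, and circles mark the 10 genes called, all of which have a mean between 1 and 100 CPM.

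Replicate consistency was described by whether the treatments' libraries overlapped. Every AN0 library lay above every AN1 library for 2025 genes (9.54%) and below for 1911 (9.0%), 3936 genes in all (18.5%). Most of these separations were narrow. The median gap between the nearest libraries of the treatments was 0.21 on the log2 scale for genes higher in AN0 and 0.18 for genes lower, and a gap of at least 1 was found for 148 and 63 genes. Separation together with a log2 fold change of at least 1 in size was seen for 1379 genes (6.50%), 798 higher and 581 lower. With a library fewer to separate, the number was 1842 without AN0-1 and 2547 without AN0-3.

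Of the 1614 genes with a log2 fold change of at least 1, all 3 AN0 libraries lay above the AN1 range for 798 (49.4%). A pair of AN0 libraries did so for 640 genes (39.7%), and this pair was AN0-1 with AN0-2 for 364 of them, AN0-1 with AN0-3 for 156 and AN0-2 with AN0-3 for 120. A single AN0 library was above the AN1 range for 176 genes (10.9%), and it was AN0-1 for 99. Among the 1063 genes with a log2 fold change of at most -1, all 3 AN0 libraries lay below the AN1 range for 581 (54.7%), a pair for 308 (29.0%), 1 library for 103 (9.69%) and none for 71 (6.68%). In both directions AN0-1 was the library most often outside the range of AN1.

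**Figure D2:**
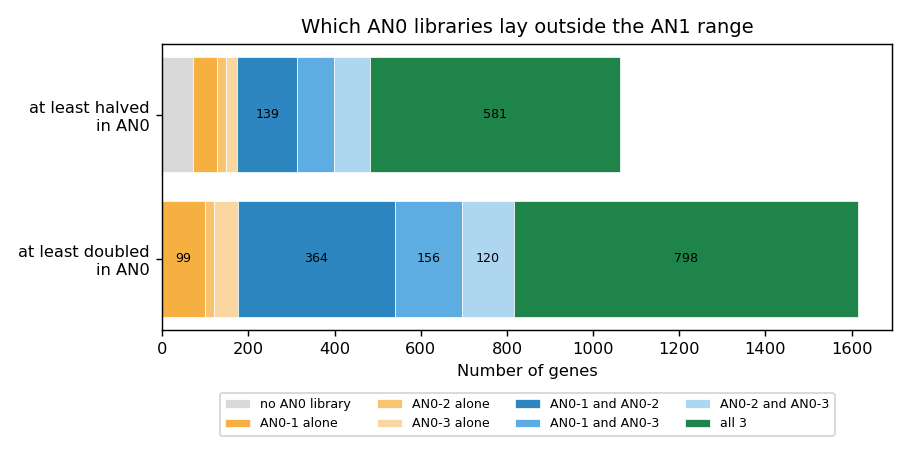
Number of genes with a log2 fold change of at least 1 (lower bar, 1614 genes) or at most -1 (upper bar, 1063 genes), split by which AN0 libraries lay above or below the range of the 3 AN1 libraries. Green segments, with all 3 libraries outside, hold 798 and 581 genes, and AN0-1 with AN0-2 is the most common pair in both bars.

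The AN0 libraries were more spread out than the AN1 libraries. The median SD of log2(CPM + 0.1) over 3 libraries was 0.460 in AN0 and 0.301 in AN1, and 72.2% of the genes had the larger SD in AN0. AN0-1 held the highest of the 6 values for 27.5% of the genes and the lowest for 27.9%, while AN1-3 held them for 6.61% and 7.85%.

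Genes were also grouped by their mean CPM over the 6 libraries. The 2946 genes with a mean under 1 CPM had the largest median absolute log2 fold change, 0.70, and the widest spread, with a median SD of 0.729 in AN0 and 0.620 in AN1. The median absolute fold change was 0.37 for the 6782 genes between 1 and 10 CPM, 0.23 for the 9622 between 10 and 100 CPM and 0.26 for the 1766 between 100 and 1000 CPM. At 1000 CPM and over it was 0.42 for 107 genes, and 15% of these genes separated the treatments upward and 15% downward. The 10 called genes lie 5 and 5 in the classes from 1 to 10 and from 10 to 100 CPM. By gene type, the treatments separated for 18.8% of 20165 protein-coding genes and for 13.9% of 1026 long non-coding RNAs, whose median of mean CPM was lower (1.39 against 13.2 CPM), and none of the 10 called genes was non-coding.

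Of the called genes, VPE2 is the one with a name. Its product, vacuolar processing enzyme, is a protease that matures and breaks down proteins in the vacuole. VPE2 stood at 80.1, 74.7 and 53.0 CPM in AN0-1, AN0-2 and AN0-3 and at 13.6, 15.4 and 17.6 CPM in the AN1 libraries. Its lowest AN0 library was thus far above its highest AN1 library. The mean of VPE2 rose from 15.54 ± 1.98 to 69.3 ± 14.4 CPM (SD, n = 3), or by 2.16 ± 0.24 on the log2 scale (SE, edgeR adjusted p = 0.0418).

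The other 9 called genes are protein-coding genes known by a locus number, and no role is given to them here. LOC102587372 had the smallest adjusted p, with 16.4, 12.3 and 21.1 CPM in AN0 against 1.67, 2.15 and 1.69 CPM in AN1. It rose by 3.17 ± 0.30 on the log2 scale (SE, edgeR adjusted p = 0.0307). LOC102598698 had the largest rise of the 8, from 0.952, 1.01 and 0.939 CPM in AN1 to 17.1, 12.1 and 8.20 CPM in AN0, or 3.68 ± 0.41 on the log2 scale (edgeR adjusted p = 0.0418, the same value as for the rest of the 10). Its AN1 libraries were nearly equal, and its AN0 libraries less so.

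LOC102589057 was the called gene with the highest level per gene length, at a mean of 83.9 FPKM in AN0 and 16.8 FPKM in AN1 (FPKM scales a count by both gene length and library total). Its CPM were 153, 154 and 104 in AN0 and 19.2, 34.6 and 27.8 in AN1, a log2 fold change of 2.33 ± 0.28. LOC107061352 followed with 59.7 and 9.41 FPKM, and with 35.7, 26.1 and 34.9 CPM in AN0 against 3.41, 4.05 and 7.76 CPM in AN1 (2.67 ± 0.33). Both genes were at similar levels in AN0-1 and AN0-2 or AN0-3, so the library that stood apart did not stand apart here. LOC102604604 rose with 48.0, 55.7 and 30.7 CPM in AN0 against 7.09, 7.03 and 11.7 CPM in AN1 (2.38 ± 0.30). LOC102589424 rose with 8.84, 17.1 and 13.9 CPM against 2.76, 2.22 and 2.43 CPM (2.43 ± 0.30). LOC102600275 had the smallest log2 fold change of the genes that rose, 1.79 ± 0.23, from 6.56, 9.50 and 8.87 CPM in AN1 to 34.5, 25.4 and 26.5 CPM in AN0.

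Both genes that fell were at low levels under deficiency. LOC102593998 stood at 0.637, 0.918 and 0.895 CPM in AN0 and 5.74, 11.4 and 10.9 CPM in AN1, and fell by 3.51 ± 0.44 on the log2 scale (SE, edgeR adjusted p = 0.0418). LOC102595294 was the most even of the 10 genes, with 2.47, 2.70 and 2.68 CPM in AN0 and 9.39, 9.18 and 8.37 CPM in AN1. It fell by 1.78 ± 0.22 on the log2 scale (SE, edgeR adjusted p = 0.0418).

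In the AN2 libraries, none of the 10 genes had a library within the AN0 range, and for each of the 10 every AN2 library lay on the side of AN0 where AN1 lies. VPE2 ran from 18.8 to 28.2 CPM in AN2, LOC102587372 from 1.27 to 1.68 CPM and LOC102595294 from 11.5 to 15.6 CPM. LOC102589424 ran from 5.93 to 8.11 CPM, between AN1 and AN0. No AN2 library lay within the AN1 range for VPE2, LOC102598698, LOC102595294 or LOC102589424. For LOC102600275 and LOC102604604 all 3 did, and for the rest 1 or 2. The AN2 libraries were part of the fit that picked these genes. The 10 calls rest on the full set of libraries. No gene was called when AN0-1, AN0-2, any AN1 library or AN2-1 was left out, or when the model held the 6 libraries alone. Each of the 10 then had an unadjusted p under 0.05 in edgeR, as had 2157 genes without AN0-1 and 2422 in the 6 libraries. This is no separate support, because the 10 were picked by their small p in these same libraries. Leaving out AN0-3 gave 109 calls, AN2-3 35 and AN2-2 5.

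**Figure D3:**
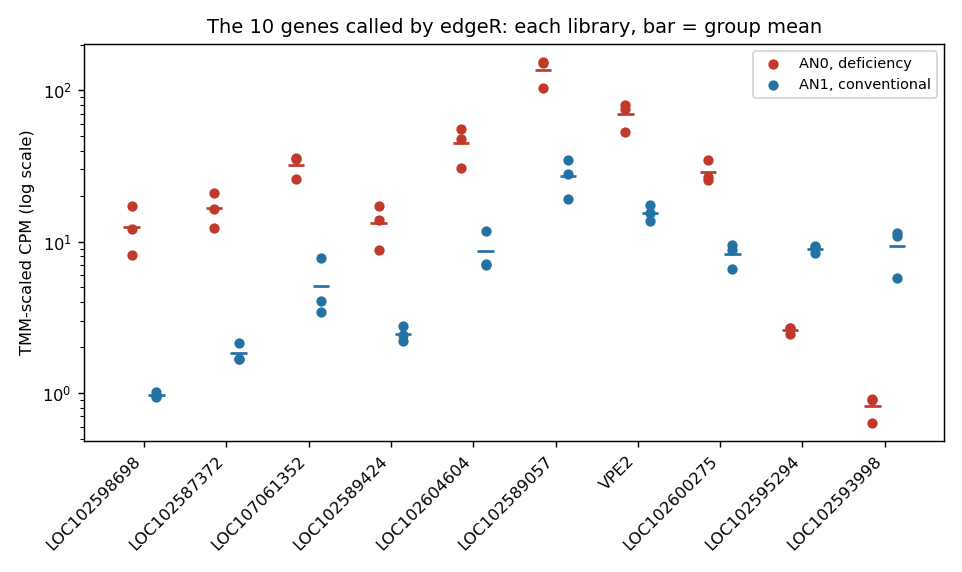
TMM-scaled CPM (log axis) of the 10 genes called by edgeR in each AN0 library (red) and AN1 library (blue), with a bar for the group mean. The 8 genes that rose have all red points above all blue points, and LOC102595294 and LOC102593998 the reverse.

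The largest differences in size did not pass the test. Among genes that averaged at least 10 CPM, with no overlap and an unadjusted p under 0.05, the highest fold change was that of LOC102586284, with 349, 40.1 and 1.25 CPM in AN0 and 0.0328, 0 and 0.332 CPM in AN1 (log2 fold change 9.94 ± 2.12, edgeR adjusted p = 0.156). AN0-1 held most of it, and AN0-3 was the AN0 library nearest to AN1. LOC102581417 was high in AN0-2 alone, at 93.2 CPM, with 2.22 and 0.447 CPM in AN0-1 and AN0-3 and 0.387 CPM at most in AN1. LOC102594594, LOC102586025 and LOC102583974 shared a pattern of 2 high AN0 libraries and a low AN0-3, with AN0-3 at 0.835, 1.85 and 3.82 CPM and the highest AN1 library at 0.538, 1.77 and 2.40 CPM.

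Other genes of this set were high in each AN0 library. LOC102602517 had the widest gap between the treatments among genes that averaged at least 10 CPM, with 58.6, 21.9 and 10.97 CPM in AN0 and 0.230, 0.380 and 0.470 CPM in AN1. Its lowest AN0 library was 19.4-fold above its highest AN1 library, and its log2 fold change was 6.38 ± 1.27 (edgeR adjusted p = 0.137). LOC102601616 came closest to a call, at 119, 74.7 and 21.9 CPM against 2.40, 5.004 and 3.92 CPM (4.25 ± 0.58, edgeR adjusted p = 0.0539). LOC102601030 was the most abundant of the 8, with 295, 391 and 43.0 CPM against 9.42, 9.03 and 16.9 CPM (4.36 ± 0.85, edgeR adjusted p = 0.135).

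The genes with the largest downward differences were less extreme, with log2 fold changes from -3.32 to -2.56. LOC102577501 headed them, at 2.47, 8.63 and 1.49 CPM in AN0 and 22.8, 47.0 and 56.3 CPM in AN1. LOC102581372 was at 2.00, 3.61 and 4.08 CPM in AN0 and 38.6, 17.3 and 25.7 CPM in AN1, and its nearest libraries differed 4.16-fold. LOC102578932 had the smallest adjusted p of the 8, at 16.9, 10.6 and 24.6 CPM against 109, 128 and 83.8 CPM (-2.62 ± 0.44, edgeR adjusted p = 0.108). In none of these 3 genes was AN0-1 the AN0 library nearest to AN1. The remaining members were LOC102596984, LOC102580602, LOC102593152, LOC102582553 and the abundant gene LOC102594080, with edgeR adjusted p from 0.191 to 0.248.

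A few genes had reads in 1 treatment and none in the other. With at least 10 counts in every AN0 library, 3 genes had no count in any AN1 library. They were LOC102601479, with 71, 198 and 46 counts in AN0, LOC102600865, with 157, 33 and 18 counts, and LOC102593752, with 13, 12 and 15 counts. Against a floor of 3 counts over the 3 AN1 libraries together, the levels in AN0 were at least 97.96-fold, 64.7-fold and 12.4-fold higher. LOC102601479 was also at 0 in all AN2 libraries. LOC102600865 was at 0, 0.124 and 2.32 CPM in AN2, the last above AN0-2 and AN0-3. LOC102593752 was at 0.415, 0.465 and 0.614 CPM in AN2, above AN1, against 0.344 to 0.447 CPM in AN0. In the other direction LOC102580614 alone had no count in AN0, with 12, 23 and 11 counts in AN1. Its levels were 1.46, 1.68 and 0.720 CPM in AN2, against 0.304 to 0.728 CPM in AN1. None of these 4 was called by edgeR, with adjusted p from 0.129 to 0.309. These genes were picked by their counts, which cover counting error only.

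Genes known only by a locus number held 87.6% of the counts in the 6 libraries and made up 74 of the 100 genes with the highest mean CPM. Abundance was ranked by CPM, which favours long genes, so levels between genes are compared below in FPKM. The 100 genes took 20.3% of the counts in AN0-1, 25.7% in AN0-2 and 26.4% in AN0-3, against 23.7%, 24.4% and 25.6% in AN1. The top 10 took 5.97% in AN0-1 and 6.91% to 8.50% in the other 5 libraries.

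None of the 100 abundant genes was called by edgeR. An unadjusted p under 0.05 was found for 14 of them, 7 higher and 7 lower, a share near the 10.8% of all genes. The number was 12 without AN0-1, 9 without AN0-2 or AN1-3 and 8 without AN1-1. DESeq2 called 5 higher and 3 lower, 8 of the 100 against 3.22% of all genes. The treatments did not overlap for 30 of the 100, with 15 in each direction, against 18.5% of all genes tested, and 23 of the 30 have only a locus number. Fold changes were positive for 53 of the 100. The median absolute log2 fold change was 0.42, against 0.30 over all genes. AN0-1 was the lowest of the 6 libraries for 54 of the 100 genes and the highest for 10.

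The 10 most abundant genes showed no shared direction. LOC102580808, the first by CPM, stood at 18964, 19067 and 14651 CPM in AN0 and 14949 to 16950 CPM in AN1 (log2 fold change 0.12 ± 0.36). Patatin (LOC102605260), the main storage protein of the tuber, had 3516 CPM in AN0-1, 13487 in AN0-2 and 19688 in AN0-3, against 15824, 16536 and 17586 CPM in AN1. Per length patatin was the most abundant gene of these 10 in AN1, at a mean of 13716 FPKM. In AN0-2 and AN0-3 it was above LOC102599310 as well, at 10711 and 15502 FPKM against 8042 and 13415 FPKM, and in AN0-1 below it, at 3065 against 8916 FPKM. LOC102577555 came next to patatin in AN1, at 12349 FPKM. Its AN0 libraries, at 839, 4456 and 6241 CPM, all lay below its AN1 libraries, at 7095, 6923 and 6921 CPM, but by little in AN0-3 (log2 fold change -0.86 ± 0.88, edgeR adjusted p = 0.816).

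LOC102592057, the last of the 10 by CPM, was the reverse case, with 9616 CPM in AN0-1 and 6142 CPM in AN0-2, and with 2155 CPM in AN0-3 within the AN1 range of 1896 to 4309 CPM. A Kunitz-type protease inhibitor (LOC102577642) and a cathepsin D inhibitor (LOC102604256), members of the inhibitor families stored in tubers, were at 2848 and 651 CPM in AN0-1, the lowest of the 6 libraries of AN0 and AN1. In AN0-2 and AN0-3 the Kunitz inhibitor was at 9466 and 12984 CPM, above all AN1 libraries. Both inhibitors and patatin belong to families of similar copies among which reads may have been split in counting, which makes each single value uncertain.

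Some abundant genes were lower in every AN0 library. LOC102596929 was at 410.0, 428 and 463 CPM in AN0 and 2835, 1750 and 1695 CPM in AN1, or -2.27 ± 0.45 on the log2 scale (edgeR adjusted p = 0.137, DESeq2 adjusted p = 4.09e-05). Its AN0 libraries were almost equal, and without AN0-1 the fold change was -2.23. LOC102594080 showed the largest fold change downward, from 4085, 1762 and 2266 CPM in AN1 to 185, 424 and 344 CPM in AN0 (-3.09 ± 0.79, edgeR adjusted p = 0.205, DESeq2 adjusted p = 0.00088). LOC102603479 was at 572, 929 and 675 CPM against 2138, 1563 and 1586 CPM (-1.28 ± 0.43, edgeR adjusted p = 0.328). Less even were LOC102597952, at 168, 522 and 1349 CPM against 3828, 1902 and 2809 CPM (-2.07 ± 0.76, edgeR adjusted p = 0.363), and LOC102595908, at 241, 1176 and 932 CPM against 1324, 3907 and 1979 CPM (-1.62 ± 1.10, edgeR adjusted p = 0.670). Without 1 of the AN0 libraries the fold change of LOC102597952 ran from -3.04 to -1.61.

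On the higher side, LOC102577615 was at 1364, 2155 and 2558 CPM in AN0 against 182, 502 and 721 CPM in AN1 (log2 fold change 2.11 ± 0.70, edgeR adjusted p = 0.322, DESeq2 adjusted p = 0.0344). LOC102586714 stood at 2013, 1995 and 3046 CPM against 712, 520.3 and 901 CPM (1.73 ± 0.42, edgeR adjusted p = 0.197). LOC102577597 and LOC102593159 were higher by log2 fold changes of 1.61 and 1.22, with AN0 means of 1873 ± 691 and 1906 ± 339.6 CPM against 615 ± 158 and 818 ± 98.7 CPM (SD, n = 3). The remaining gene of these 5, LOC102598541, is a lipoxygenase and is described with its family.

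**Figure D4:**
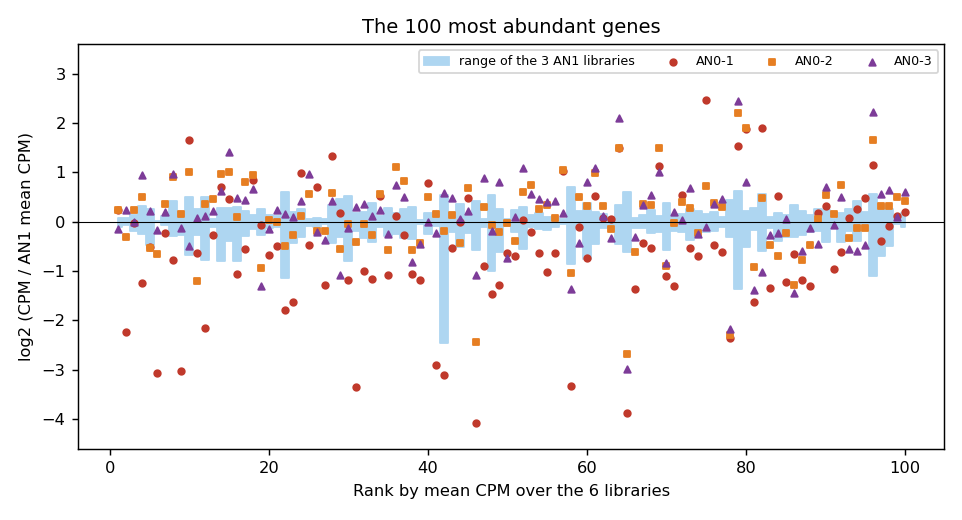
Level of the 100 most abundant genes in each AN0 library as log2 of its CPM over the AN1 mean CPM, in order of mean CPM over the 6 libraries. The blue band is the range of the 3 AN1 libraries, and AN0-1 (red circles) is the lowest of the 6 libraries for 54 of the 100 genes.

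Of the 451 tested genes with a name, those that fit were put into 17 lists with 169 member places, of which 158 were tested. Fold changes were positive for 119 of the 158, against 52.3% of all genes tested, most of which have no name, and VPE2 was the one member called. No change below is therefore a call of edgeR over all genes other than that of VPE2, and the lists were drawn up with earlier results of these data known.

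The list of nitrogen uptake and assimilation holds nitrate and nitrite reductase, glutamine synthetases and amino acid permeases. It holds no nitrate or ammonium transporter, so uptake from soil is not covered. All 6 tested genes were higher in mean under deficiency, and 5 did not overlap upward (9.54% of all genes). Their median log2 fold change was 1.27, against 0.02 over all genes. Without AN0-1 the median was 1.19. Nitrate reductase NR3 stood at 25.8, 13.5 and 19.4 CPM in AN0 and 2.26, 3.04 and 1.71 CPM in AN1 (3.07 ± 0.57, edgeR adjusted p = 0.134). Nitrite reductase NIR stood at 12.5, 8.72 and 2.83 CPM against 1.08, 0.633 and 0.221 CPM (3.63 ± 0.70, edgeR adjusted p = 0.134). The lowest AN0 library exceeded the highest AN1 library for both enzymes. The glutamine synthetases, which take up the ammonium that these enzymes produce, differed less. LOC102596783, the more abundant of them, was nearly even within each treatment, at 219, 203 and 210.3 CPM in AN0 and 172, 139 and 167 CPM in AN1 (0.41 ± 0.24, edgeR adjusted p = 0.593). LOC102603663 was at 8.59, 7.66 and 4.77 CPM against 2.82, 1.27 and 3.98 CPM (1.38 ± 0.68). The amino acid permease aap1 (LOC102597666) was at 19.8, 20.4 and 19.4 CPM in AN0 and 7.52, 10.7 and 8.34 CPM in AN1 (1.17 ± 0.28, edgeR adjusted p = 0.194), while its relative AAP2 overlapped. At an unadjusted p under 0.05 there were 3 of the 6 genes, all higher (6.67% of all genes were higher at that p). DESeq2 called 3 higher (2.21% of all genes).

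Lipoxygenases add oxygen to unsaturated fatty acids, and the products feed the synthesis of jasmonates, of short aldehydes through hydroperoxide lyase, and of divinyl ethers through divinyl ether synthase. All 8 tested genes of this list had positive fold changes, with a median of 1.62 (1.70 without AN0-1). For 7 of them every AN0 library was above AN1 (9.54% of all genes). DESeq2 called 3 higher (2.21% of all genes), and 6 had an unadjusted p under 0.05 (6.67% of all genes were higher at that p). Hydroperoxide lyase HPL was the most even, at 27.6, 24.3 and 23.2 CPM in AN0 and 9.65, 7.35 and 9.48 CPM in AN1. It narrowly missed a call, with 1.503 ± 0.20 on the log2 scale (SE, edgeR adjusted p = 0.0530). Lipoxygenase POTLX-3 was the highest in fold change, 3.41 ± 0.72, at 4.41, 1.55 and 5.90 CPM against 0.263, 0.285 and 0.553 CPM.

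The abundant lipoxygenases of the LOX1 group were higher in every AN0 library. LOC102598541 was at 1129, 1616 and 2391 CPM in AN0 and 238, 541 and 759 CPM in AN1 (1.74 ± 0.82), and LOC102602192 was at 846, 1262 and 1627 CPM against 164, 255 and 434 CPM (2.13 ± 0.58). In both, AN0-1 was the lowest AN0 library and still exceeded all of AN1. LOC102602528 was at 774, 497 and 587 CPM against 176, 319 and 259 CPM (1.30 ± 0.55). These 3 share the synonym LOX1 or StLOX1, so reads may have been split among similar copies. Divinyl ether synthase (LOC102588225) stood at 84.0, 80.2 and 241 CPM against 13.0, 17.9 and 31.0 CPM (2.71 ± 1.07, edgeR adjusted p = 0.404). Lipoxygenase LOX2.1 (LOC102596122), at 1.30 CPM or less in all 6 libraries, was the member that overlapped.

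For storage proteins and protease inhibitors, 1 of 6 fold changes was positive and the median was -0.33, but this rested on AN0-1. Against the AN1 mean the median of the 6 genes was -2.15 in AN0-1, 0.29 in AN0-2 and 0.27 in AN0-3 on the log2 scale, and without AN0-1 the median fold change was 0.13. Starch synthesis genes had a median of 0.47 (0.76 without AN0-1), with 7 of 9 positive. Granule-bound starch synthase GBSS, which makes amylose, was at 3735, 5466 and 7300 CPM in AN0 and 2091, 2770 and 3328 CPM in AN1 (1.01 ± 0.72, edgeR adjusted p = 0.688). The treatments separated, but by a small gap between AN0-1 and AN1-3. A starch branching enzyme, Sbe-II (LOC102590711), was at 36.9, 99.6 and 64.6 CPM against 26.0, 11.4 and 21.4 CPM (1.77 ± 0.44, edgeR adjusted p = 0.199), and starch synthase SS2 (LOC102583115) was at 445, 678 and 603 CPM against 255, 300.5 and 322 CPM (0.98 ± 0.39). A phosphoglucomutase, PGM1 (LOC102579912), which interconverts glucose phosphates, separated the other way, at 311, 374 and 398 CPM against 548, 496 and 446 CPM (-0.46 ± 0.29).

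All 13 tested genes of sucrose metabolism and transport had positive fold changes, with a median of 0.34 (0.52 without AN0-1 and 0.19 without AN0-2). For 4 of them all AN0 libraries were above AN1, against 9.54% of all genes. The sucrose synthase SS16, which splits sucrose for starch synthesis in tubers, overlapped between the treatments, at 2345, 6084 and 4688 CPM in AN0 and 2827, 4031 and 3527 CPM in AN1. A cytosolic fructose bisphosphatase (LOC102588954), an enzyme on the route to sucrose, was at 14.5, 11.04 and 10.8 CPM against 3.87, 2.19 and 5.08 CPM (1.70 ± 0.36, edgeR adjusted p = 0.156). Sucrose phosphate phosphatase SPP2, the last enzyme of sucrose synthesis, was at 56.1, 60.9 and 68.9 CPM against 44.8, 48.2 and 44.4 CPM (0.44 ± 0.17). The 3 tested genes of starch breakdown were positive with a median of 0.52, and none separated, against 18.5% of all genes tested.

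Photosynthesis genes had the largest median of all lists, 3.86 over 5 tested genes, all positive, yet the treatments overlapped for each of them. Without AN0-1 the median was 0.98. Of all genes tested 18.5% did not overlap. The chlorophyll-binding protein gene cab1 (LOC102596966) was at 243 CPM in AN0-1, 2.44 CPM in AN0-2 and 0 in AN0-3, and at 0, 0 and 0.939 CPM in AN1. The oxygen-evolving complex gene psbP (LOC102603839) was at 108, 4.36 and 0 CPM in AN0 and 0.263, 0.348 and 5.39 CPM in AN1. PSBR, a subunit of photosystem II, was at 279, 80.4 and 22.6 CPM in AN0 and 9.52, 10.4 and 46.5 CPM in AN1. Of the 8 list members, 3 did not pass the filter on low counts.

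Genes of phenylpropanoid and flavonoid synthesis had their largest fold changes in members high in AN0-2 alone. Chalcone synthase CHS1A, the entry enzyme of flavonoid synthesis, was at 21.5 CPM there and at 0.471 CPM or less in the other 5 libraries, and flavonol synthase FLS was at 97.6 CPM against 2.41 CPM or less. For CHS2 the levels were 0.665, 16.5 and 0.298 CPM in AN0, with 0.193 CPM at most in AN1. Over the 12 genes the median was 0.51, and 2 did not overlap, both higher, against 9.54% of all genes. They were CHS2 and the MYB factor gene MYBA1 (LOC102591217), which was high in every AN0 library, at 16.5, 27.8 and 14.998 CPM against 3.02, 4.88 and 5.53 CPM (2.14 ± 0.99, edgeR adjusted p = 0.476). Phenylalanine ammonia-lyase PAL (LOC102596017), at the head of the pathway, was highest in AN0-1, at 3178 CPM, with 1187 and 422 CPM in AN0-2 and AN0-3 and 565 to 1270 CPM in AN1.

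Of 19 defence genes 15 had positive fold changes, with a median of 0.56, and 3 did not overlap, all higher, against 9.54% of all genes. The thaumatin-like gene PR-5/319 was at 11.6, 4.44 and 1.70 CPM in AN0 and 0.164, 0 and 0.0553 CPM in AN1 (6.29 ± 1.23, edgeR adjusted p = 0.137, DESeq2 adjusted p = 2.31e-06). A chitinase, ChtA (LOC102577835), was at 17.1, 9.21 and 10.6 CPM against 6.40, 2.34 and 3.90 CPM (1.55 ± 0.44, edgeR adjusted p = 0.246). The median of the list was 0.24 without AN0-1 and 0.90 without AN0-3.

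Regulators of tuberization and flowering were mixed, with 15 of 21 positive and a median of 0.26 (0.11 without AN0-1). FT, of the family of mobile signals for flowering and tuber formation, was low, at 1.55, 1.32 and 2.95 CPM in AN0 and 1.28, 0.348 and 0.470 CPM in AN1 (1.47 ± 0.67, edgeR adjusted p = 0.474). The treatments touched closely between AN0-2 and AN1-1. CO, a CONSTANS gene of day-length sensing, was at 28.2 and 7.60 CPM in AN0-1 and AN0-2 but at 0.298 CPM in AN0-3, within the AN1 range of 0 to 0.317 CPM. The clock gene StPCL1 (LOC102600588) was lower in each AN0 library, at 10.03, 12.5 and 11.1 CPM against 20.3, 18.4 and 18.5 CPM (-0.77 ± 0.19, edgeR adjusted p = 0.199, DESeq2 adjusted p = 0.00607). Phytochrome A, C-PHYA, a light receptor, was also lower, at 148, 129 and 152 CPM against 177, 367 and 235 CPM (-0.86 ± 0.29). For POTM1-1, a MADS-box gene, the levels were 23.0, 18.7 and 16.6 CPM against 6.17, 5.48 and 13.8 CPM (1.19 ± 0.43).

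Genes of ethylene and abscisic acid had a median of 0.52, with 13 of 17 positive and 5 that did not overlap, all higher, against 9.54% of all genes. The kinases SnRK2.3 (LOC102599363) and SnRK2.5 (LOC102587696), of a family that relays stress and abscisic acid signals, were higher in every AN0 library, at AN0 means of 61.6 ± 9.54 and 33.6 ± 5.35 CPM against 36.5 ± 5.39 and 17.5 ± 0.470 CPM (SD, n = 3). Without AN0-3 the median of the list was 0.15.

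Lower medians were found in a pair of further lists. For glycoalkaloids and sterols 3 of 6 fold changes were positive, and the median was -0.26. A pair of genes separated downward, against 9.0% of all genes. Of these sgt1 (LOC102602977) was at 21.9, 38.7 and 26.7 CPM in AN0 and 88.5, 71.5 and 68.5 CPM under conventional supply (-1.39 ± 0.45, edgeR adjusted p = 0.316). The other, Sgt3 (LOC102577928), was at 129, 114 and 98.2 CPM against 208, 182 and 188 CPM. For 4 ribosomal genes the median was -0.23, and 0.05 without AN0-1. RPL13 was at 708 CPM in AN0-1, 1198 in AN0-2 and 1471 in AN0-3, below all of AN1.

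Among the other lists, respiration had a median of 0.26 with 6 of 11 positive, phosphate and ion transport 0.40 with 7 of 8, and cell wall 0.08 with 4 of 8. Without AN0-1 the medians of respiration and cell wall were 0.05 and -0.03. Over the alternatives run, the medians of respiration and cell wall took both signs, from -0.15 to 0.27 and from -0.21 to 0.33. The alternative oxidase AOX, which bypasses part of the mitochondrial electron chain, was at 104, 70.0 and 72.7 CPM in AN0 against 56.1, 32.7 and 37.0 CPM in AN1 (0.97 ± 0.34, edgeR adjusted p = 0.344). A UDP-glucose epimerase of the cell wall list, STUGE51, was at 33.5, 23.3 and 18.4 CPM against 13.1, 11.6 and 14.0 CPM (0.96 ± 0.29, edgeR adjusted p = 0.284). None of the 8 transport genes separated, against 18.5% of all genes tested.

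**Figure D5:**
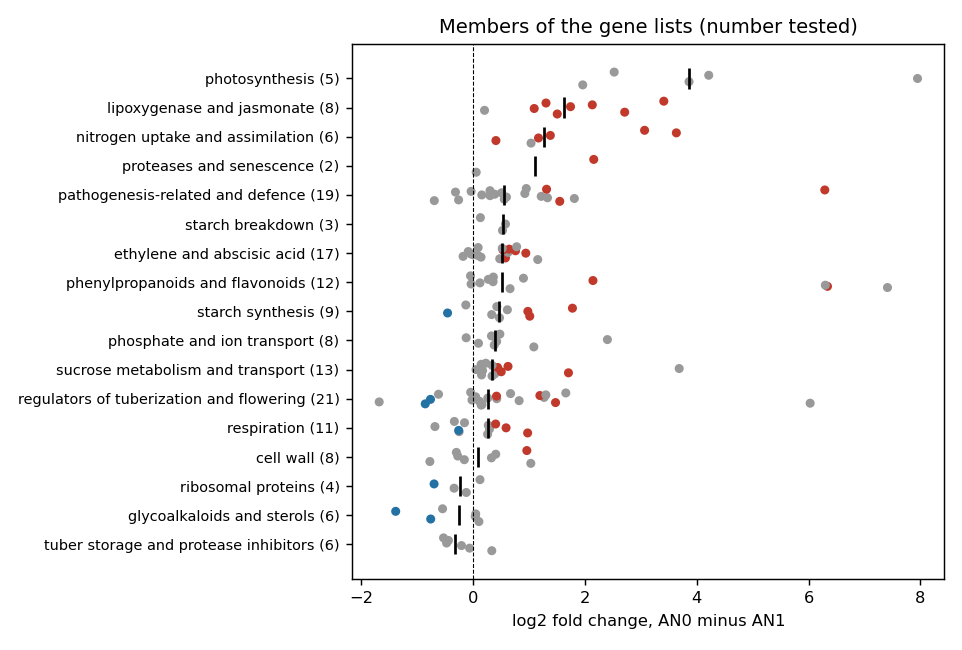
Log2 fold change (AN0 minus AN1, edgeR) of each tested member of the 17 gene lists, with the number tested beside the name and a black bar for the list median. Red points are genes with every AN0 library above every AN1 library, blue points the reverse and grey points overlap. The lipoxygenase list has 7 red points of 8, and the photosynthesis list, with the largest median, has none.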

How the data were processed

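RNA-seq of total RNA was deposited by the authors as whole-number read counts per gene and as FPKM, which equal count over gene length and library total to a relative difference of at most 1.55e-07. Per the submitters' processing notes, fastp, HISAT2, HTSeq, R 3.2.0 and DESeq2 were used. Neither roles of these tools nor the genome build or strand setting is given in the sources used here.

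Genes kept by filterByExpr (21223 of 25702) were fitted on counts with edgeR 4.0.16 in R 4.3.3 (quasi-likelihood, robust, TMM), all 9 libraries, a mean per treatment, Benjamini-Hochberg adjusted p under 0.05 over all genes. Standard errors are the fold change over the root of F. The common biological coefficient of variation was 0.417. Alternatives used limma 3.58.1 (log2 FPKM plus 0.1 or 1) and DESeq2 1.42.0. Simulated counts were filtered again, which kept 20950 genes. Before that filter 50 genes were changed per class, and the shares called are of those kept. Each gene had the same spread in every treatment and no library was set apart, unlike in these data, where AN0 was wider. Of 4-fold rises 56.0% were called, of 4-fold falls 29.2%, of 2-fold rises 2.00% and of 2-fold falls 4.00%. Among unchanged genes 0.0145% were called. No libraries of a treatment agreed within sampling noise (chi-square per gene 36.8 to 405).

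Names came from a RefSeq table of assembly SolTub_3.0, which matched 25672 IDs. Genes named are all those called, the 8 largest rises and falls with a mean of at least 10 CPM, no overlap and unadjusted p under 0.05, the 10 most abundant and the 5 largest abundant differences each way without overlap, anchor genes, and the 2 smallest p per list. The others were chosen after their values were seen. Lists match name patterns, less 3 members whose full names went against the list. The comparison, lists and rule were chosen with earlier results of these data known.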

Additional observations from a re-analysis of the deposited data

How the results depend on the processing

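The count of 10 called genes depended on the setting. It was 0 with the 6 libraries alone, with log2(FPKM + 0.1), in the fit with a replicate block, and when AN0-1 and AN2-3 were both left out, 2 with log2(FPKM + 1) and no filter, 679 with DESeq2 and 1027 with voom quality weights (689 higher and 338 lower, 67.1% higher against 80.0%). It ran from 0 to 109 when 1 library was left out. It stayed between 10 and 15 with log2(FPKM + 1), other size factors, a mean of at least 5 CPM, no filter or no robust step. The genes were not always the same. With log2(FPKM + 1) there were 12 calls, which included 5 of the 10 genes but not VPE2. The filter at 5 CPM kept 9 of the 10 as calls. Beside the counts of 0, edgeR or limma gave 1467 to 2733 genes at an unadjusted p under 0.05. The labels do not say whether equal replicate numbers mark a shared plant, plot or day. Deviations of same-numbered libraries correlated at -0.381, -0.002 and 0.050, and those of differently numbered libraries at -0.340 to 0.350. These few values cannot decide whether the numbers pair the libraries. The edgeR fit with a replicate block gave 1681 genes at an unadjusted p under 0.05, and its smallest adjusted p was 0.153. The 1379 genes with no overlap and a log2 fold change of at least 1 in size became 572 among genes of at least 5 CPM and 1602 to 2547 without 1 library. Of the 100 abundant genes, 14 had an unadjusted p under 0.05, 26 with voom, and 8 to 18 without 1 library.

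Of 79 named genes 75 had the same direction in every alternative. With AN0-1 and AN2-3 both left out, patatin (LOC102605260) was at 0.00377 and LOC102604256 at 0.0261, against negative fold changes in the full set. With 1 AN0 library left out, LOC102577431 ranged from -0.0199 to 0.12, LOC102577642 from -0.12 to 0.74 and LOC102604256 from -0.95 to 0.0227. The cause was not tested beyond the libraries left out. In the simulated counts, whose spread was simpler than that of these libraries, most 2-fold differences were not called.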
